A study of Mus musculus with 18 samples.

Results

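The genes described are those of the proteasome: its core particle, its regulatory particle, its activators and the chaperones that assemble it. They were taken as every gene symbol that begins with Psm, continues with 1 letter from a to g and then a digit, with 30 or more counts summed over all 18 libraries. Among the 46983 symbols counted, 54 matched, and 50 of these reached the count. Just inside the limit lay the pseudogene Psmb6-ps2 with 34 counts and Psma8, the testis form of an alpha subunit, with 79. Just outside lay Psmb11 with 8, Psmb5-ps with 4, Psmb6-ps with 2 and Psmb7-ps2 with 1. A match of letters is not a match of function: Psmc3ip, a factor of meiotic recombination, is among the 50 and is no proteasome subunit. In each of the 3 model fits 48 members passed the filter on low counts, and in each fit the members it removed were Psma8 and Psmb6-ps2.

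Hearts of adult mice, operated at 8 to 10 weeks of age, were sampled 6 weeks after an infarction, made by tying off the left anterior descending artery, or after sham surgery. There are 6 groups of 3 libraries. Whole-heart total RNA was sequenced from infarcted control and infarcted Salv cKO mice. RNA bound to ribosomes was purified from cardiomyocytes by TRAP (translating ribosome affinity purification) from control and Salv cKO mice, each after infarction and after sham surgery. The controls are labelled wild type. Salv stands for Salvador, encoded by Sav1, a scaffold of Hippo signalling, and cKO for conditional knockout. The labels name neither the driver of the deletion nor the ribosome tag. Nor do they say that the 3 libraries of a group are 3 animals, so a p-value here measures spread among libraries, which may be technical.

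The proteasome degrades proteins that carry ubiquitin. A barrel of alpha and beta rings holds the proteolytic sites, of which Psmb6 has the caspase-like, Psmb7 the trypsin-like and Psmb5 the chymotrypsin-like activity. A regulatory particle with a ring of ATPases binds, unfolds and feeds in the substrate, and interferon replaces the catalytic subunits with Psmb9, Psmb10 and Psmb8 to form the immunoproteasome. In heart muscle the proteasome removes sarcomere proteins and damaged proteins, and the transcription factor Nfe2l1 raises proteasome genes when proteasome activity is short.

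Library totals ran from 3240871 to 24135877 counts. Levels are CPM, the share of a library's counts at a gene on a common scale, with TMM factors over all 18 libraries together. They are given library by library in the order 1, 2, 3. Fold changes come from the fit of each comparison and so from another scaling. Sav1, the targeted gene, did not separate the labels: in infarcted TRAP RNA it was at 7.90, 6.75 and 5.01 CPM in controls and 6.58, 6.76 and 4.02 in Salv cKO, in sham TRAP RNA at 8.79, 6.24 and 6.69 in controls and 2.65, 1.14 and 10.1 in Salv cKO, and it passed in no genotype comparison. Counts over a whole gene do not show which exons remain. The library labelled sham Salv cKO 3, with the highest of these TRAP values, and sham control library 2 held 659 and 567 counts on Y chromosome genes, against 0 to 7 in the other 16. The numbers of members called with infarction in each genotype, and between genotypes after sham, are therefore also given without both. The interaction of genotype and surgery and the genes around the proteasome are not. Y chromosome counts mark male animals, so the libraries of each sham group did not all come from the same animal. The spread of the sham groups is therefore not technical alone. All infarcted libraries were among the 16 with few or no such counts. The cardiomyocyte origin of TRAP RNA was checked against marker genes. Of 8 cardiomyocyte markers 5 were higher in TRAP than in total RNA and 2 lower, of 8 fibroblast markers 6 were lower, and of 8 endothelial markers 7 were lower and 1 was higher. Of 9 leukocyte markers tested 3 were higher and 3 lower. TRAP RNA therefore still held RNA of other cells, and in total RNA fewer cells of a type cannot be told apart from less RNA per cell.

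The 250 bases before the RefSeq transcription start are shown for 4 members on which the results below turn. Gene positions given below are GENCODE's, whose starts differ, and the last bases shown for Psma4 and Psmb5 lie inside them. Psmb5 and Psmb6 are catalytic subunits far higher in TRAP than in total RNA, and Psma7 and Psma4 are the alpha subunits with the largest differences between infarcted and sham hearts. Sequences are RefSeq's for GRCm38.p6, written 5′ to 3′. Capitals mark TGACNNNGC, the core of the antioxidant response element through which Nfe2l1 acts, in Psmb5 and Psmb6, and CCAAT in Psma7. Psma4 holds neither of these nor GAAANNGAA, the core of the interferon response element, and is shown in lower case throughout.
Psmb5 (chr14:54617996-54618245, minus strand): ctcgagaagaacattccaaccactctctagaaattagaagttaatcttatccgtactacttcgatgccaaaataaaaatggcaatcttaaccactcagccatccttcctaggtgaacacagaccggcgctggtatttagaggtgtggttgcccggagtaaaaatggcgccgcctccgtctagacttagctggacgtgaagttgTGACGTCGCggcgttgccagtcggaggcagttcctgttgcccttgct
Psmb6 (chr11:70525107-70525356, plus strand): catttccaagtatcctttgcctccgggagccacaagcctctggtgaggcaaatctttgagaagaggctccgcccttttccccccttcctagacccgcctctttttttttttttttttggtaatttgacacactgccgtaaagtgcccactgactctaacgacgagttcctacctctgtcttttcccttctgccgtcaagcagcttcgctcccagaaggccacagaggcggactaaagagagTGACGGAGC
Psma7 (chr2:180042465-180042714, minus strand): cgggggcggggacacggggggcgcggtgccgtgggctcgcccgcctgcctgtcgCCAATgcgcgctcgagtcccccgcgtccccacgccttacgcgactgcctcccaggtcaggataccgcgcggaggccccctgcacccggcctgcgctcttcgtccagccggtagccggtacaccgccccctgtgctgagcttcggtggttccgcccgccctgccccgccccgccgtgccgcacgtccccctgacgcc
Psma4 (chr9:54950609-54950858, plus strand): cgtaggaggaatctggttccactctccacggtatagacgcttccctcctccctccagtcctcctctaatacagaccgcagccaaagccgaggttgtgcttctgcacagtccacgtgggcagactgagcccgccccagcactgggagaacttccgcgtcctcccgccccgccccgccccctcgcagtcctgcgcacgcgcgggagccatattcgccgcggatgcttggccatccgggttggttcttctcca
RefSeq promoters were found for 41 of the 50 members, 44 in all. Both strands were searched, and each marked sequence holds 1 match, so no motifs overlap in them. TGACNNNGC lay in 11.4% of the 44 and in 10.2% of 32851 mouse promoters of the same length. The 5 members that held it were Psmb5, Psmb6, Psmc6, Psmd12 and Psmd9. GAAANNGAA lay in 6.82% of member promoters against 7.13% of all, and CCAAT in 31.8% against 33.8%. The shares of members were near those of all promoters for each of the 3 motifs. A match of letters is a description and not a site.

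Whether proteasome transcripts were more abundant on cardiomyocyte ribosomes than in the whole heart was asked in the infarcted hearts, over both genotypes. They were, for most members. In TRAP RNA 35 of the 48 members were higher than in total RNA and 3 were lower, where 34.4% of all 13267 genes tested were higher and 39.9% lower. The median log2 fold change was 1.35 over the members and -0.15 over all genes. Counted over the whole table, members made up 0.607% to 0.686% of counts in infarcted TRAP libraries and 0.350% to 0.406% in total RNA libraries. Mitochondrial transcripts took 15.8% to 29.0% of counts in total RNA and at most 0.532% in TRAP RNA. With mitochondrial counts left out of the total the member shares were 0.482% to 0.513% in total RNA and 0.609% to 0.688% in infarcted TRAP RNA, still without overlap. TMM factors over all 18 libraries were 1.24 to 1.68 in total RNA and 0.869 to 0.978 in infarcted TRAP RNA. Scaled differences therefore lie further toward TRAP RNA than those of plain shares of counts. How far the smaller rises given below, such as that of Psme1, rest on this was not tested with unscaled counts. The 6 TRAP and the 6 total RNA libraries did not overlap for 34 members, 31 of them higher in TRAP RNA, where 53.1% of all genes tested did not overlap in either direction.

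The difference was not even along the complex. In the alpha ring, which gates the barrel, 5 of 7 subunits rose with TRAP, led by Psma7 (log2 fold change 2.38, SE 0.18, adjusted p = 1.61e-10), while Psma1 differed by 0.15 (SE 0.13, adjusted p = 0.283) and Psma3 by 0.25 (SE 0.13, adjusted p = 0.0919). The others that rose were Psma4 at 1.98, Psma6 at 1.91, Psma2 at 1.35 and Psma5 at 0.76, with SEs of 0.17, 0.18, 0.14 and 0.13. Of the 4 beta subunits without a catalytic site 3 rose, led by Psmb4 at 2.53 (SE 0.14, adjusted p = 4.39e-13), with Psmb1 at 1.63 (SE 0.13) and Psmb3 at 1.55 (SE 0.14). Psmb2 was the exception, at -0.11 (SE 0.14, adjusted p = 0.483).

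The catalytic subunits went in opposite directions. Psmb5 (chr14:54614119-54618022, minus strand) had 18.03, 14.5 and 19.6 CPM in total RNA of controls and 21.1, 19.3 and 19.3 in that of Salv cKO, against 259, 232 and 235 and 159.7, 193 and 203 in TRAP RNA. Every TRAP library was far above every total RNA library, and the log2 fold change of 3.54 (SE 0.14, adjusted p = 1.93e-15) was the highest of any member. Psmb6 (chr11:70525367-70527858, plus strand) was at 62.3 to 77.7 CPM in total RNA and 258 to 358 in infarcted TRAP RNA, a log2 fold change of 2.20 (SE 0.13, adjusted p = 8.64e-13).

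Psmb7 (chr2:38588036-38644087, minus strand) did the reverse. It had 51.0, 40.1 and 52.9 CPM in total RNA of controls and 62.1, 42.2 and 46.1 in that of Salv cKO, against 4.81, 4.44 and 5.01 and 6.97, 7.68 and 8.52 in TRAP RNA. The groups were far apart, with a log2 fold change of -2.99 (SE 0.16, adjusted p = 1.84e-13), the lowest of any member. Psmb10, its interferon-induced counterpart, was high in the TRAP libraries that were low in Psmb7. In total RNA Psmb10 had 97.7, 246 and 69.9 CPM in controls and 114, 93.9 and 64.9 in Salv cKO, against 297, 247 and 348 and 304, 249.9 and 325 in infarcted TRAP RNA. The groups did not overlap, although control total RNA library 2 came within 2 CPM of the lowest TRAP library, and the log2 fold change was 1.43 (SE 0.27, adjusted p = 0.000302). That library also had the lowest mitochondrial share of the total RNA libraries, 15.8%, and its part in the spread was not tested. Of the counts of Psmb7 and Psmb10 together, Psmb10 held 69.5% ± 14.9 (SD, n = 3) in control total RNA and 98.4% ± 0.172 in infarcted control TRAP RNA. The share was 64.1% ± 5.30 in Salv cKO total RNA and 97.4% ± 0.370 in infarcted Salv cKO TRAP RNA. These shares compare counts that were not divided by length.

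Reads at the Psmb7 position could be shared. The gene overlaps Nek6 and Gm13586 on the other strand and Gm27634 on its own, and whether the counting used strand is not known here. Nek6 was at 4.09 to 6.59 CPM in total RNA, under the level of Psmb7 there, and at 1.16 to 5.21 in infarcted TRAP RNA, nearer to it. In Salv cKO TRAP RNA Nek6 had 1.14, 0.76 and 0.90 CPM after sham and 3.36, 3.29 and 5.21 after infarction. In infarcted control TRAP RNA it had 2.06, 2.49 and 1.16. Its part in the TRAP values of Psmb7, here and below, was not tested. Psmb10 overlaps Gm16156 on the other strand, which had at most 2 counts in any library. In all, 24 members overlap another annotated gene, among them Psma4 (AY074887, other strand), Psmd1 (Htr2b, other strand), Psmc3 (Slc39a13, other strand) and Psme1 (Emc9, other strand), and their values carry the same limit.

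The other immunoproteasome subunits were scarce in both fractions. Psmb8, counterpart of Psmb5, had 3.32, 3.52 and 4.74 CPM in control total RNA and 6.87, 6.25 and 5.09 in Salv cKO total RNA, against 20.1, 28.05 and 34.7 and 13.8, 13.0 and 32.0 in TRAP RNA. The fractions did not overlap, and the log2 fold change was 2.28 (SE 0.23, adjusted p = 5.50e-09). Psmb9, counterpart of Psmb6, was at 4.74 to 8.94 CPM in total RNA and 6.07 to 15.6 in infarcted TRAP RNA, ranges that overlapped, with a log2 fold change of 0.62 (SE 0.22, adjusted p = 0.0157). That call was lost without infarcted control TRAP library 3, which had the highest value (0.44, adjusted p = 0.0765), and without the filter on low counts (0.51, adjusted p = 0.0640). Psmb9 overlaps Tap1 on the other strand. Of the counts of Psmb8 and Psmb5 together Psmb8 held 18.2% ± 2.27 in control total RNA and 10.3% ± 2.86 in infarcted control TRAP RNA (SD, n = 3). Of those of Psmb9 and Psmb6 the share of Psmb9 was 7.51% ± 1.23 and 3.04% ± 1.18.

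**Figure D1:**
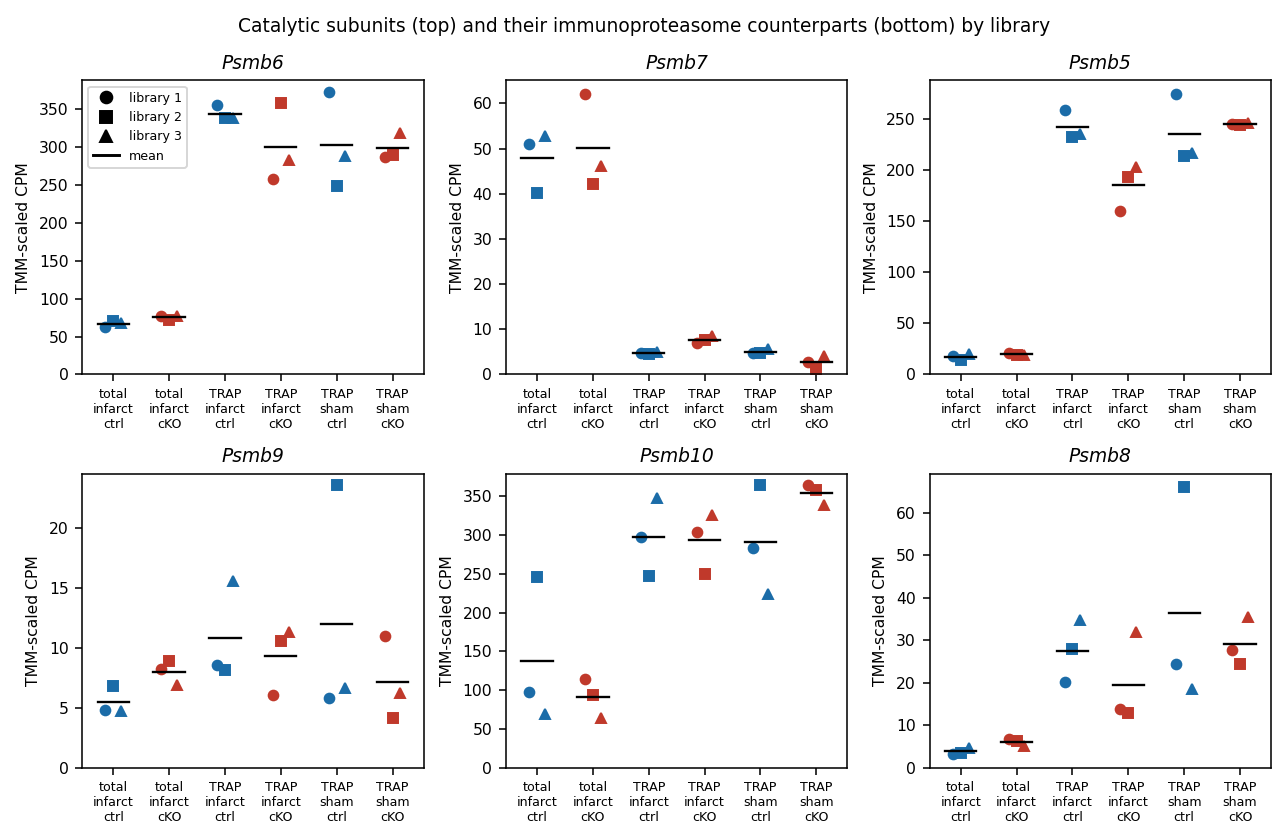
Levels of the 3 catalytic subunits (top) and of the immunoproteasome subunit that replaces each (bottom), in TMM-scaled CPM on a linear axis from 0; points are libraries, bars are means of 3 libraries, blue is control and red Salv cKO. Psmb7 lies at 40.1 to 62.1 CPM in total RNA and under 9 in every TRAP library, while Psmb5 and Psmb6 lie far higher in TRAP than in total RNA.

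The regulatory particle followed the core. Of its 6 ATPases 5 rose with TRAP, led by Psmc5 at 2.89 (SE 0.17, adjusted p = 7.32e-13), with Psmc6 at 0.12 (SE 0.14, adjusted p = 0.440). Psmc1 was at 1.998, Psmc3 at 1.93 and Psmc2 at 0.68, with SEs of 0.14, 0.15 and 0.14. Psmc4 passed at 0.44 (SE 0.14, adjusted p = 0.00813) but not without the filter on low counts (adjusted p = 0.0597). Of the 11 other subunits 8 rose and none fell. Beside Psmd4 these were Psmd1 at 2.10, Psmd13 at 1.95, Psmd11 at 1.72, Psmd7 at 1.58, Psmd3 at 1.35, Psmd8 at 1.19 and Psmd2, the second scaffold of the base, at 0.65, with SEs from 0.12 to 0.15. The ubiquitin receptor Psmd4 had 97.4, 73.6 and 108 CPM in control total RNA and 95.7, 104 and 99.2 in Salv cKO total RNA, against 515, 509.7 and 492 and 367, 399.8 and 459 in TRAP RNA. The fractions lay far apart, with a log2 fold change of 2.27 (SE 0.14, adjusted p = 1.07e-12). The deubiquitinase Psmd14 differed by 0.23 (SE 0.15, adjusted p = 0.155), Psmd6 by 0.28 (SE 0.14, adjusted p = 0.0833) and the lid subunit Psmd12 by 0.13 (SE 0.14, adjusted p = 0.408).

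Among the assembly chaperones 6 of 7 rose and 1 fell. Psmg4, which helps to build the alpha ring, had 5.60, 2.4995 and 4.65 CPM in control total RNA and 8.19, 7.48 and 5.31 in Salv cKO total RNA, against 69.4, 71.2 and 57.1 and 44.2, 62.2 and 57.5 in TRAP RNA. Its log2 fold change of 3.46 (SE 0.18, adjusted p = 1.37e-13) was second to that of Psmb5. Its partner Psmg3 was at 2.60 (SE 0.17, adjusted p = 6.62e-12). Psmg1 and Psmg2, which act as a pair on the alpha ring, were at 1.202 (SE 0.16) and 1.213 (SE 0.18), and Psmd9 and Psmd10, chaperones of the ATPase ring, at 1.42 (SE 0.16) and 1.25 (SE 0.20). Psmd5, a chaperone of the ATPase ring, was at 14.6 to 19.5 CPM in total RNA and 4.78 to 10.3 in infarcted TRAP RNA, a log2 fold change of -1.14 (SE 0.19, adjusted p = 1.18e-05). It overlaps Cutal on the other strand, which was at 0.22 to 2.92 CPM in these libraries.

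The activators, which open the barrel in place of the regulatory particle, divided. Psme1 and Psme2, the interferon-induced pair, rose by 0.69 (SE 0.14, adjusted p = 0.000102) and 1.76 (SE 0.15, adjusted p = 5.38e-10). The nuclear activator Psme3 differed by -0.24 (SE 0.12, adjusted p = 0.0816). Psme4, an activator tied to histone breakdown, had 333, 283 and 267 CPM in control total RNA and 211, 243 and 265 in Salv cKO total RNA, against 177, 144 and 179.8 and 174, 198 and 209.8 in TRAP RNA. The total RNA libraries lay above the TRAP libraries by a margin as narrow as about 1 CPM, in the scaling of the fit the groups overlapped, and the log2 fold change was -0.53 (SE 0.13, adjusted p = 0.000666). The inhibitor Psmf1 differed by 0.31 (SE 0.16, adjusted p = 0.0769). Psme2b, a gene 99.4% identical to Psme2 over 794 bases, rose by 2.01 (SE 0.25, adjusted p = 2.00e-07), and how the counting divided reads between the pair is uncertain. Psmc3ip, near the floor of detection, differed by 0.28 (SE 0.39, adjusted p = 0.528).

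**Figure D2:**
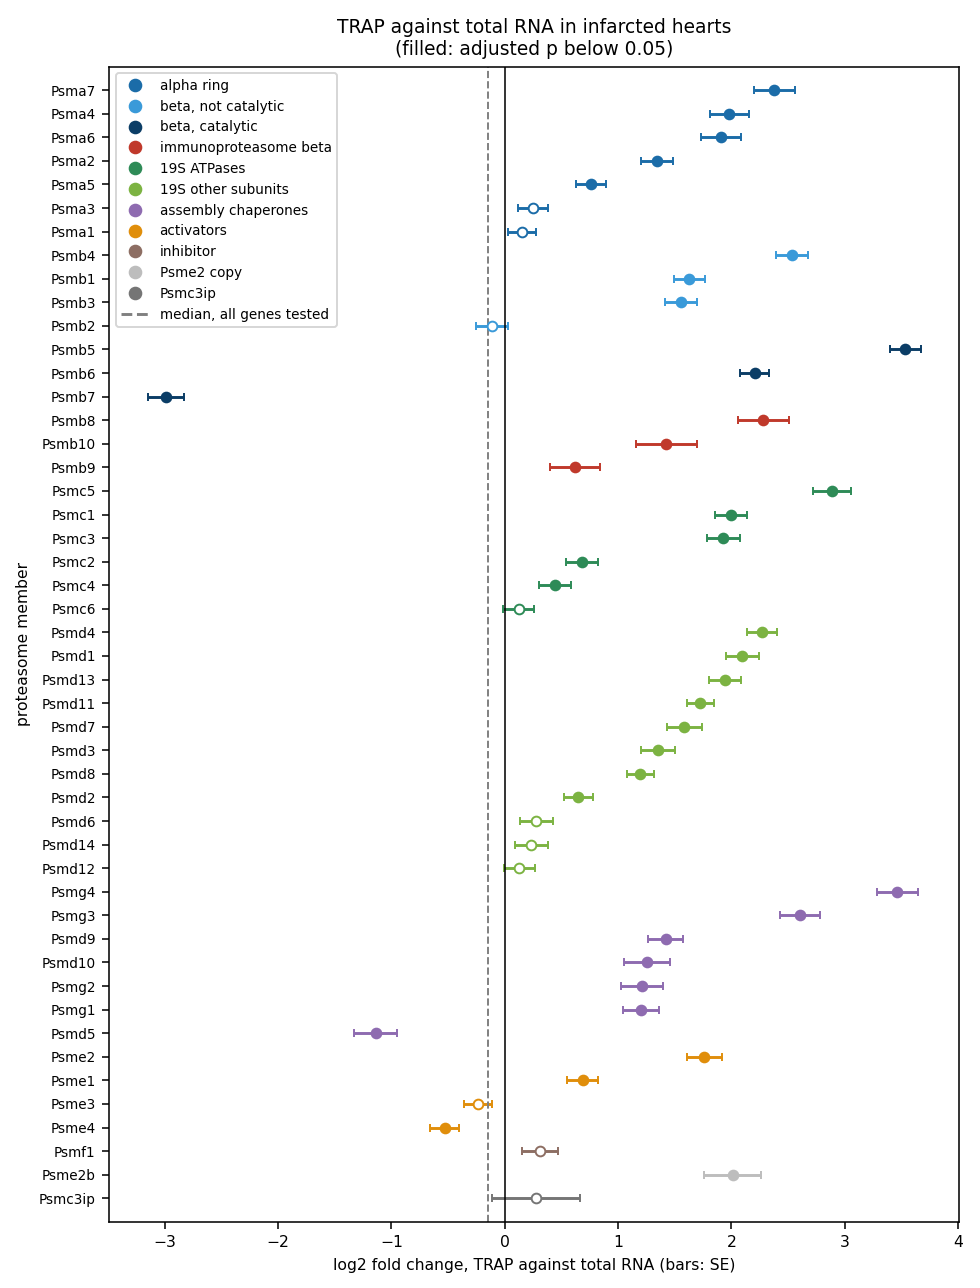
Log2 fold change of TRAP against total RNA in infarcted hearts for the 48 members tested, by role, with SE bars from the fit of 12 libraries; filled points passed an adjusted p of 0.05 and the dashed line is the median of all genes tested (-0.15). Most members lie right of 0, with Psmb5 at 3.54 and Psmg4 at 3.46, and Psmb7 lies apart at -2.99.

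Transcript level and length moved with these fold changes. The mean level is taken over the same 12 libraries that are compared, so a high TRAP value itself raises it. Among the 24 members with the higher mean level, 21 rose and the median was 1.82, while of the 1271 genes tested at or above the same level 70.1% rose and the median was 1.17. Among the 24 less abundant members 14 rose and 2 fell, with a median of 0.65, while of the genes below that level 30.6% rose, 42.2% fell and the median was -0.26. Over all genes with a length the Spearman correlation of the fold change with exon length was -0.33 (12815 genes), and over the 48 members it was -0.33. These are correlations across genes, which are not independent replicates and share libraries and depth. The part of length or level in the members' fold changes was not tested.

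Divided by exon length, the order of abundance within the complex differed between the fractions. In infarcted control TRAP RNA Psmb5 was the most abundant member per kilobase (269 CPM per kb ± 16.3), with Psmb4 at 264 ± 15.9, a gap smaller than either SD. Psmc5 at 228 ± 7.04 and Psmc3 at 205 ± 9.13 followed. Psmb6 stood at 184 ± 5.18 and Psmb7 at 1.39 ± 0.0849, so that subunits present in equal numbers in the standard barrel stood far apart in counts per length. In control total RNA the same quantity was 19.3 ± 2.90 for Psmb5, 35.8 ± 2.23 for Psmb6 and 14.03 ± 2.02 for Psmb7 (SD, n = 3 throughout). The highest in that fraction was Psmb10 at 80.8 ± 55.4, ahead of Psmc3 at 46.2 ± 13.2, but without control library 2 the order turned, with Psmb10 at 49.2 and Psmc3 at 53.2. Exon lengths are those of all annotated exons of a gene, not of the isoform used.

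Genes that work beside the proteasome gave mixed results in the same comparison. Of 75 tested 60 passed in either direction (80%), near the 74.2% of all genes tested. Of 17 partners tested 8 rose and 4 fell, with Shfm1, a small lid subunit, at 3.30 (SE 0.20, adjusted p = 1.95e-12) and Pomp, the maturation chaperone of the barrel, at 3.31 (SE 0.21, adjusted p = 3.33e-11). Of 5 ubiquitin and E1 genes 3 rose and 1 fell. Of 9 genes listed as regulators of proteasome genes 3 rose and 4 fell, among them Keap1 at 2.01 (SE 0.14, adjusted p = 1.90e-11) and Bach1 at -2.40 (SE 0.18, adjusted p = 4.97e-11). In the complex of the segregase Vcp 8 of 14 rose and 2 fell, in the muscle ubiquitin ligases 7 of 17 rose and 9 fell, and in class I antigen processing 4 of 13 rose and 7 fell.

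Whether infarction moved these genes on cardiomyocyte ribosomes was asked in each genotype. In Salv cKO it did for a group of abundant subunits: 13 members fell and 4 rose, where 10.6% of all 11393 genes tested fell and 7.56% rose. The members that fell came from the alpha ring (Psma7, Psma4, Psma6), the beta ring (Psmb3, Psmb4), the ATPases (Psmc1, Psmc3), the lid and base (Psmd7, Psmd1, Psmd11, Psmd4, Psmd8) and the assembly chaperones (Psmg4). Those that rose were Psmb7, Psmb2, Psma1 and Psme4. The median over the members was -0.09, against 0.02 over all genes. Without infarcted Salv cKO library 1 the median was 0.04. The groups did not overlap for 26 of the 48 members, 19 lower and 7 higher, where 35.6% of all genes tested did not overlap in either direction. Summed over members, the share of counts was 0.705% to 0.796% in sham Salv cKO and 0.607% to 0.686% in infarcted Salv cKO libraries. In control it was 0.689% to 0.729% after sham and 0.633% to 0.679% after infarction, also without overlap. TMM factors over all 18 libraries were 0.740 to 0.815 in sham and 0.928 to 0.978 in infarcted Salv cKO libraries. Scaled differences in Salv cKO are therefore more negative than those of plain shares, and the part of scaling in the smaller falls was not tested with unscaled counts.

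Psma7 (chr2:180036374-180042433, minus strand), an alpha subunit, had 711, 497 and 917 CPM after sham and 209, 190.1 and 316 after infarction. All infarcted libraries were below all sham libraries, and the log2 fold change was -1.60 (SE 0.25, adjusted p = 0.000516). Psma4 (chr9:54950790-54958030, plus strand), its ring neighbour, had 439, 344 and 817 CPM after sham and 199, 172 and 198 after infarction. These groups did not overlap either, although the library labelled sham Salv cKO 3 was far above the other sham libraries. The log2 fold change was -1.52 (SE 0.37, adjusted p = 0.0167). Psma4 missed the threshold without any 1 of the infarcted Salv cKO libraries, at adjusted p = 0.0637 without library 1, 0.0621 without library 2 and 0.0527 without library 3. Psma6 had 239.9, 331 and 310 CPM after sham and 139, 169.6 and 184 after infarction, with no overlap. Its log2 fold change was -0.86 (SE 0.18, adjusted p = 0.00192).

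In the regulatory particle Psmd1, the large scaffold of the base (chr1:86064387-86139151, plus strand), had 523, 749 and 785 CPM after sham and 229, 292 and 285 after infarction. The groups were far apart, with a log2 fold change of -1.38 (SE 0.20, adjusted p = 0.000134). The lid subunit Psmd7 (chr8:107580381-107588464, minus strand) had 477, 501 and 787 CPM after sham and 246, 203 and 224 after infarction. It too was lower in every infarcted library, at -1.41 (SE 0.26, adjusted p = 0.00139). The ATPase Psmc1 had 406, 423 and 464 CPM after sham and 252, 249 and 258 after infarction, at -0.79 (SE 0.16, adjusted p = 0.00171). The lid subunit Psmd11 stood at -0.77 (SE 0.17, adjusted p = 0.00364) and the ubiquitin receptor Psmd4, with 671, 629 and 685 CPM after sham and 367, 399.8 and 459 after infarction, at -0.72 (SE 0.16, adjusted p = 0.00420).

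Of the 4 members that rose 3 were among the 24 with the lower mean level, and Psme4 was among the more abundant. Psmb7 had 2.65, 1.14 and 4.18 CPM after sham and 6.97, 7.68 and 8.52 after infarction, with no overlap, and a log2 fold change of 1.47 (SE 0.43, adjusted p = 0.0222). The level rested on few counts in the sham libraries, of which the shallowest held 3240871. Nek6, which overlaps Psmb7, was also higher in every infarcted than in every sham Salv cKO library. Psmb2, a beta subunit without a catalytic site, had 27.7, 22.9 and 17.3 CPM after sham and 35.5, 51.7 and 35.3 after infarction, at 0.83 (SE 0.23, adjusted p = 0.0150). Psma1 was at 0.55 (SE 0.17, adjusted p = 0.0297) and Psme4 at 0.47 (SE 0.16, adjusted p = 0.0459).

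Of the 17 calls 7 held under every alternative tried: Psma6, Psma7, Psmc1, Psmd1, Psmd11, Psmd4 and Psmd7. The others passed the threshold less securely, and the number of calls was 9 without infarcted Salv cKO library 1, 11 without infarcted Salv cKO library 2, 11 without the library labelled sham Salv cKO 3, and 14 without both libraries with Y chromosome counts (12 lower, 2 higher). Psmb3 at -0.67 (SE 0.17, adjusted p = 0.00886) missed the threshold without infarcted Salv cKO library 1 (adjusted p = 0.0620), as did Psmb4 at -0.54 (0.158), Psmc3 at -0.55 (0.0731), Psmd8 at -0.59 (0.0727), Psmg4 at -0.70 (0.0902), Psma1 (0.0693) and Psme4 (0.0590). Without infarcted Salv cKO library 2 the adjusted p of Psmb2 was 0.0896, of Psma1 0.108, of Psmc3 0.0509, of Psmd8 0.0661 and of Psme4 0.104. Without infarcted Salv cKO library 3 that of Psmb7 was 0.0575 and of Psme4 0.138. Without the library labelled sham Salv cKO 3 it was 0.127 for Psmb4, 0.0962 for Psmb2, 0.0808 for Psma1, 0.0550 for Psmd8, 0.0532 for Psme4 and 0.0501 for Psmc3. Without both libraries with Y chromosome counts it was 0.109 for Psmb4, 0.0924 for Psmb2 and 0.0691 for Psma1. Without sham Salv cKO library 2 it was 0.0972 for Psmb7, 0.0986 for Psmd8, 0.0891 for Psma1 and 0.128 for Psme4, and without sham Salv cKO library 1 it was 0.0527 for Psmg4 and 0.124 for Psme4.

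The remaining activators and catalytic subunits did not pass in edgeR. Psme1 had 241, 138 and 376 CPM after sham and 135, 127 and 113 after infarction, at -1.03 (SE 0.34, adjusted p = 0.0523), just short of the threshold. It passed without sham Salv cKO library 2, the lowest sham library (-1.33, adjusted p = 0.00615), and under DESeq2 (-1.03, adjusted p = 0.00857). Psmb5 was at -0.43 (SE 0.16, adjusted p = 0.0657) and passed under DESeq2 (adjusted p = 0.0467). Psmb6 was at -0.02 (SE 0.17, adjusted p = 0.945), Psme2 at 0.33 (SE 0.17, adjusted p = 0.194) and Psme3 at 0.26 (SE 0.21, adjusted p = 0.418). Psmf1 was at 0.14 (SE 0.25, adjusted p = 0.753). The immunoproteasome subunits stood at -0.62 (SE 0.50) for Psmb8, 0.34 (SE 0.53) for Psmb9 and -0.30 (SE 0.19) for Psmb10, with adjusted p of 0.434, 0.703 and 0.299. Psmc3ip, with the highest fold change, was at 1.60 (SE 0.76, adjusted p = 0.146), had no count in the library labelled sham Salv cKO 3, and passed without sham Salv cKO library 1 (2.94, adjusted p = 0.0389).

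**Figure D3:**
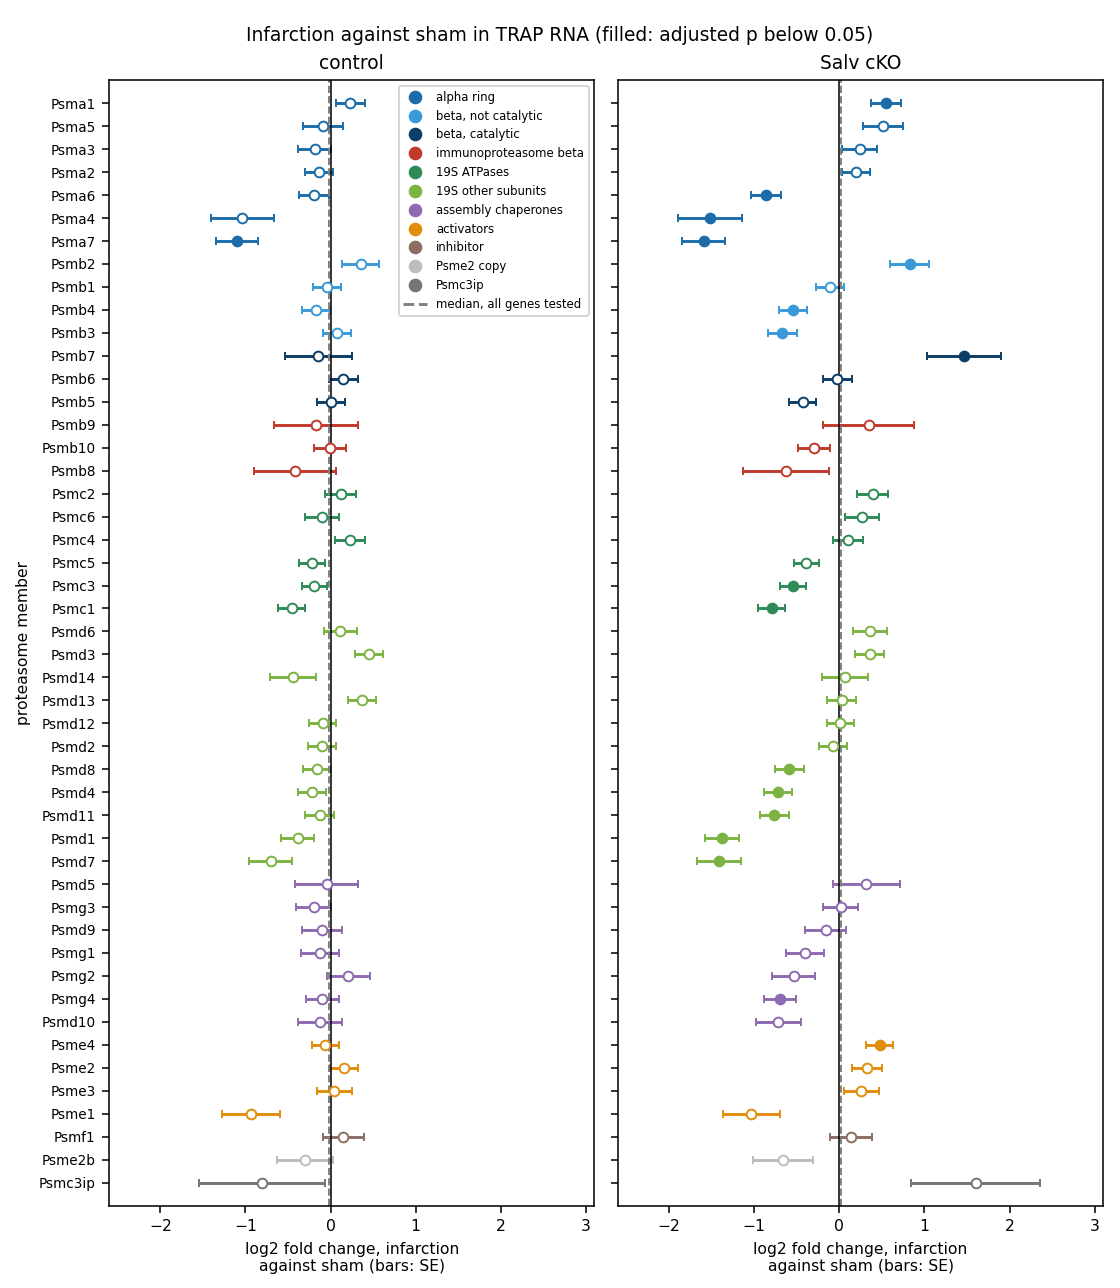
Log2 fold change of infarction against sham in TRAP RNA for the 48 members tested, in control (left) and Salv cKO (right), by role, with SE bars from the fit of 12 libraries; filled points passed an adjusted p of 0.05 and dashed lines are the medians of all genes tested. In Salv cKO 13 filled points lie left of 0 and 4 right of it, and in control Psma7 at -1.10 is the filled point.

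Abundance moved with this pattern. The mean level is taken over the 12 TRAP libraries, the compared ones among them, so a high sham value itself raises it. Of the 24 members with the higher mean level 12 fell and 1 rose, with a median of -0.55, while of the 1332 genes tested at or above that level 32.1% fell, 7.51% rose and the median was -0.29. Of the 24 less abundant members 1 fell and 3 rose, with a median of 0.19, while of the genes below that level 7.75% fell, 7.56% rose and the median was 0.07. Markers of other cells also differed in the same comparison. The medians were 1.26 for 8 fibroblast markers, of which Lum passed at 0.92 (SE 0.26, adjusted p = 0.0228), and -0.66 for 9 leukocyte markers, of which none passed and all 9 had negative values. For 6 mural (vessel wall) markers the median was 0.40, with 4 values positive and 1 gene past the threshold. For 8 endothelial markers it was -0.31, with 6 values negative and none past the threshold. Summed fibroblast markers ran from 801 to 973 CPM in sham and from 799.5 to 1575 in infarcted Salv cKO libraries. Summed leukocyte markers ran from 322 to 459 and from 282 to 396 CPM, where Cd3e and Cd79a were at 0 in several libraries and Itgam was at 0 in infarcted Salv cKO library 2. Summed cardiomyocyte markers ran from 180072 to 194306 CPM in sham and from 128281 to 154334 in infarcted Salv cKO libraries. These TMM-scaled sums did not overlap. Without TMM factors they were 146602, 149135 and 136174 CPM in sham and 143659, 143059 and 124995 in infarcted Salv cKO libraries. The unscaled sums overlapped, so the separation rested on the scaling. Of the cardiomyocyte markers Ryr2 at -2.12 (SE 0.36, adjusted p = 0.00216), Tnni3 and Myl2 fell and Pln rose. The part of abundance or of these markers in the members' changes was not tested.

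In the control genotype infarction moved 1 member past the threshold. Psma7 had 592, 408 and 671 CPM after sham and 214, 266 and 318 after infarction, with no overlap, and fell by 1.10 on the log2 scale (SE 0.25, adjusted p = 0.0449). Among all genes 0.992% fell and 0.0878% rose. Over the 48 members the median was -0.11 against -0.02 over all genes, and 14 values were positive, where 47.9% of all genes were. An unadjusted p under 0.05 was found for 7 members (14.6%), against 14.1% of all genes. Psma4, at 451, 241 and 538 CPM after sham and 138, 189 and 284 after infarction, overlapped between the groups, and its value was -1.04 (SE 0.37, adjusted p = 0.211). Psmd7 was at 497, 285 and 471 CPM after sham and 187, 243 and 357 after infarction, a difference of -0.70 (SE 0.25, adjusted p = 0.190). Psme1 was at 210.2, 144 and 359 CPM after sham and 124, 119 and 139 after infarction, without overlap, at -0.93 (SE 0.34, adjusted p = 0.210). The highest values were those of the lid subunits Psmd3 at 0.45 (SE 0.17, adjusted p = 0.183) and Psmd13 at 0.37 (SE 0.17, adjusted p = 0.321). The catalytic subunits were at 0.01 (SE 0.16) for Psmb5, 0.15 (SE 0.17) for Psmb6 and -0.14 (SE 0.39) for Psmb7, with adjusted p of 0.991, 0.775 and 0.918. Psmd4 was at -0.22 (SE 0.16, adjusted p = 0.601) and Psmf1 at 0.15 (SE 0.24, adjusted p = 0.855).

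Sham control library 2 was the lowest of its group for Psma7, Psma4, Psmd7, Psmd1, Psmc1 and Psme1. Without it 4 members fell: Psma7 and, chosen after their values were seen, Psmd7 (-0.91, adjusted p = 0.0261), Psmc1 (-0.60, adjusted p = 0.0266) and Psme1 (-1.19, adjusted p = 0.0391). Without both libraries with Y chromosome counts 5 fell, with Psma4 at -1.31 (adjusted p = 0.00150) added to these. The call of Psma7 was lost without infarcted control library 1 (adjusted p = 0.267) or 2 (0.213) and without sham control library 1 (0.144) or 3 (0.186). Sham control library 2 also had the highest summed leukocyte markers of the TRAP libraries, 585 CPM, against 275 to 495 in the others, and its part in these values was not tested.

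**Figure D4:**
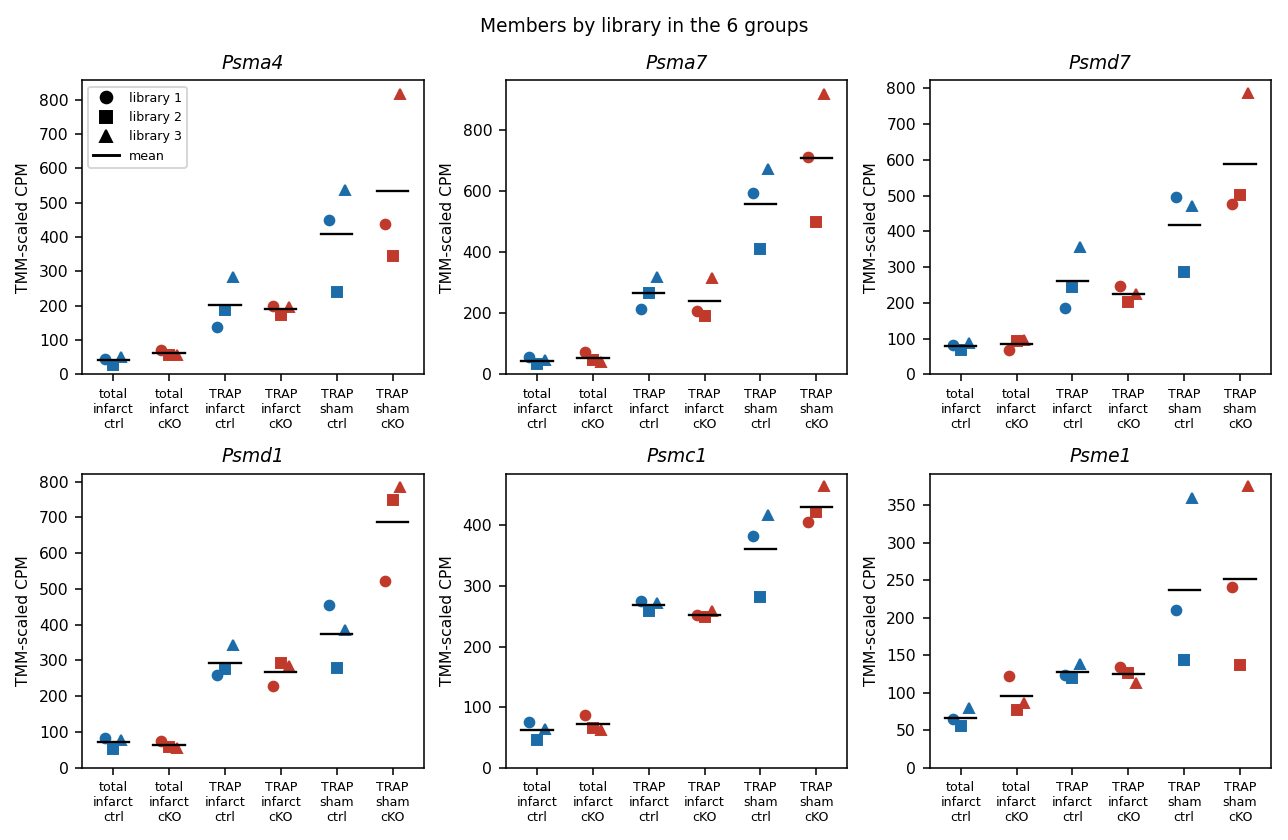
Levels of 6 members by library in the 6 groups, in TMM-scaled CPM on a linear axis from 0; points are libraries, bars are means of 3 libraries, blue is control and red Salv cKO. In Psma4, Psma7, Psmd7 and Psmd1 every infarcted Salv cKO library lies below every sham Salv cKO library, and sham control library 2 (square) lies lowest of its group.

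No member showed a tested difference between the genotypes in the response to infarction: the interaction of genotype and surgery passed for 0 of 48 members and for 0% of all genes higher and 0% lower in edgeR, with 10 members (20.8%) at an unadjusted p under 0.05, against 12.6% of all genes. DESeq2 also gave 0. The lowest values were those of Psmd1 at -0.99 (SE 0.28, adjusted p = 0.197) and Psmb3 at -0.75 (SE 0.24, adjusted p = 0.230), the highest those of Psmc3ip at 2.41 (SE 1.06, adjusted p = 0.350) and Psmb7 at 1.61 (SE 0.59, adjusted p = 0.285). Without the filter on low counts Psmd1 passed at -0.93 (adjusted p = 0.0343). The calls in Salv cKO and their absence in control therefore do not show that the genotypes differ.

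Between the genotypes after sham surgery 1 member passed. Psmd1 had 455, 280.3 and 386 CPM in control and 523, 749 and 785 in Salv cKO, without overlap, and was higher by a log2 fold change of 0.88 (SE 0.20, adjusted p = 0.0188), where 1.36% of all genes were higher and 1.19% lower. This comparison shares the sham Salv cKO libraries with the infarction comparison above. The call was lost without both libraries with Y chromosome counts (0.60, adjusted p = 0.195), and without sham control library 2 (adjusted p = 0.0769), sham Salv cKO library 2 (0.0857) or the library labelled sham Salv cKO 3 (0.0944). Psma6 was next, at 190.8, 175 and 197 CPM in control and 239.9, 331 and 310 in Salv cKO, with no overlap, at 0.65 (SE 0.18, adjusted p = 0.0502). It passed under DESeq2 (adjusted p = 0.0123), as did Psmd11 (0.60, adjusted p = 0.0196) and, lower, Psme2 (-0.58, adjusted p = 0.0314). Without sham Salv cKO library 1, 3 members passed, Psmd1, Psma6 (adjusted p = 0.0328) and Psmd11 (0.0408). The lowest values were those of Psmb7 at -0.90 (SE 0.44, adjusted p = 0.281) and Psmb9 at -0.72 (SE 0.53, adjusted p = 0.504). All 8 fibroblast markers had negative values here, with a median of -0.51, and none passed. Their sum was 1826 CPM in sham control library 2 and 801 to 973 CPM in the other 5 sham libraries, and its part in the members' values was not tested. Over the members the median was -0.02 and 22 values were positive, against -0.03 and 48.1% over all genes. An unadjusted p under 0.05 was found for 7 members (14.6%), against 18.5% of all genes. Psmb5 was at 0.06 (SE 0.16, adjusted p = 0.872), Psmb6 at -0.02 (SE 0.17, adjusted p = 0.967), Psmd4 at 0.21 (SE 0.16, adjusted p = 0.532) and Psmf1 at 0.03 (SE 0.25, adjusted p = 0.968).

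Between the genotypes after infarction no member passed in TRAP RNA in edgeR, where 0.184% of all genes tested rose in Salv cKO and 0.149% fell, and DESeq2 gave 0 as well. By unadjusted p 5 members (10.4%) were under 0.05, against 7.36% of all genes. The median was -0.11 and 35 of 48 values were negative, where the median over all genes was 0.004 and 50.5% were positive. Members share libraries, so their signs are not independent. Psmb5 was the clearest of the catalytic subunits, at 259, 232 and 235 CPM in control and 159.7, 193 and 203 in Salv cKO, without overlap, at -0.37 (SE 0.16, adjusted p = 0.613). Psmb6 was at -0.19 (SE 0.17, adjusted p = 0.903) and Psmd4 at -0.29 (SE 0.16, adjusted p = 0.770). Psme2 was lower in every Salv cKO library, at -0.43 (SE 0.17, adjusted p = 0.550), and Psmb7 higher in every one, at 0.71 (SE 0.38, adjusted p = 0.764). Nek6, which overlaps Psmb7, was higher in every one too. The other extremes were Psmc3ip at 1.78 (SE 0.70, adjusted p = 0.552), Psme2b at -0.73 (SE 0.34, adjusted p = 0.653) and Psmb8 at -0.50 (SE 0.49, adjusted p = 0.931). All 9 leukocyte markers tested had negative values in this comparison, with a median of -0.55, and none passed. Of 8 cardiomyocyte markers 6 were negative, with a median of -0.14 and none past the threshold, and their sum ran from 167631 to 185790 CPM in control and from 128281 to 154334 in Salv cKO libraries, without overlap. The part of these markers in the members' values was not tested.

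In total RNA after infarction no member passed between the genotypes in edgeR or DESeq2, where 0.185% of all genes tested rose in Salv cKO and 0.0695% fell. The values leaned the other way from those in TRAP RNA: 38 of 48 were positive, against 51.9% of all genes, with a median of 0.19 against 0.02. By unadjusted p 8 members (16.7%) were under 0.05, against 13.8% of all genes. Here too the members share libraries. Psmb8 and Psmg4 had the highest values, 0.70 (SE 0.27, adjusted p = 0.304) and 0.73 (SE 0.31, adjusted p = 0.328). Psmb8 and Psmb9 (0.59, SE 0.25, adjusted p = 0.336) were higher in every Salv cKO library. Psmb10 was lowest at -0.58 (SE 0.47, adjusted p = 0.608), with Psme4 at -0.27 (SE 0.19, adjusted p = 0.552). The Psmb10 value rested on control library 2, at 246 CPM. The other controls had 97.7 and 69.9 CPM and the Salv cKO libraries 114, 93.9 and 64.9. The median over members was 0.08 without control library 2, with 3 members at an unadjusted p under 0.05, and 0.17 without Salv cKO library 1, with 0 such members. Leukocyte markers moved in the same direction: all 9 tested had positive values with a median of 0.67, none of them past the threshold, and their sum ran from 284 to 328 CPM in control and from 393 to 541 in Salv cKO libraries. Of 8 markers each, 6 cardiomyocyte, 7 fibroblast and 7 endothelial markers were positive too, with medians of 0.20, 0.29 and 0.18, and none passed. The part of all these markers in the members' values was not tested.

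The difference between those fractions was tested as an interaction of genotype and RNA fraction. It passed for no member in edgeR or DESeq2, where 0.143% of all genes were higher and 0.286% lower, with 11 members (22.9%) at an unadjusted p under 0.05, against 14.8% of all genes. Of the 48 values 38 were negative and the median was -0.37, against -0.04 over all genes, of which 47.1% were positive. Psmb8 at -1.23 (SE 0.44, adjusted p = 0.209) and Psmg4 at -1.01 (SE 0.34, adjusted p = 0.185) were lowest. Psmc3ip at 1.79 (SE 0.77, adjusted p = 0.277) and Psmb7 at 0.58 (SE 0.31, adjusted p = 0.394) were highest. All 9 leukocyte markers had negative values too, with a median of -1.13, and Cd52 passed at -2.11 (SE 0.48, adjusted p = 0.0496). Of 8 cardiomyocyte markers 7 were negative, with a median of -0.54, and of 8 endothelial markers 6, with a median of -0.42, none past the threshold. The part of these markers in the members' values was not tested.

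Of 74 genes that work around the proteasome 18.9% passed with infarction in Salv cKO TRAP RNA, near the 18.2% of all genes tested. In Salv cKO after infarction, of 9 genes listed as regulators of proteasome genes, 2 fell and 1 rose. The one that rose, Nrf1, is nuclear respiratory factor, a gene other than Nfe2l1, and is not read here as a proteasome regulator. Nfe2l1, the activator of proteasome genes, had 512, 514 and 901 CPM after sham and 369, 339 and 365 after infarction, with no overlap, at -0.87 (SE 0.21, adjusted p = 0.00789). Nrf1 had 6.06, 3.05 and 2.39 CPM after sham and 12.1, 11.7 and 9.71 after infarction, at 1.54 (SE 0.41, adjusted p = 0.0129). Of 17 muscle ubiquitin ligases 3 fell and 2 rose, with Trim54, a ligase of the sarcomere, at -0.9996 (SE 0.17, adjusted p = 0.000483) and Klhl40, a Cullin adaptor that guards sarcomere proteins, at -1.06 (SE 0.20, adjusted p = 0.00124). Of 17 partners 1 rose, Ubqln4 at 0.82 (SE 0.24, adjusted p = 0.0234), and of 5 ubiquitin and E1 genes 1 fell, Uba6 at -0.84 (SE 0.25, adjusted p = 0.0234). In the Vcp list 2 of 14 fell and 1 rose, led by Ubxn4 at -1.19 (SE 0.30, adjusted p = 0.0124), and in class I antigen processing 1 of 12 rose, the peptide transporter Tap2 at 1.23 (SE 0.33, adjusted p = 0.0132). Between the genotypes after sham Trim54 was higher in Salv cKO by 0.88 (SE 0.17, adjusted p = 0.00699) and Tap2 was lower, at -1.68 (SE 0.33, adjusted p = 0.00818). In the control genotype no gene of these 6 lists passed with infarction.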

How the data were processed

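The authors deposited unnormalised read counts for each gene, in 18 files of 1 library and a joint table that holds the same values. Per the submitters' processing notes STAR 2.5, the mm10 genome and DESeq2 were used. The labels give no counting tool, gene annotation or strand setting. Libraries were made with the Ion Total RNA-Seq kit v2, per the labels' protocols.

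These counts went into edgeR 4.0.16 (R 4.3.3): TMM scaling, filterByExpr and the robust quasi-likelihood test, two-sided, with Benjamini-Hochberg adjustment over all genes tested and a threshold of 0.05. The 12 TRAP libraries (11393 genes), the 6 total RNA libraries (12945) and the 12 libraries of infarcted hearts (13267) were each fitted together, for 8 comparisons. The SE of a fold change is its absolute log2 value divided by the square root of the F statistic of that test. The script was tested on simulated data. Alternatives were DESeq2 1.42.0, RLE scaling, no filter, a replicate block and leaving out libraries. Lengths and positions are GENCODE vM21 (GRCm38).

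The members and gene lists were chosen with earlier results of these data known. Named, though not in every comparison, are the catalytic and immunoproteasome subunits, the activators Psme1 to Psme4, Psmf1, Psmd4, every member that passes in a comparison and, per comparison, the 2 highest and 2 lowest members by fold change. Of a pathway list at most 2 passing genes are named per comparison, those with the smallest p. A count of 3 in 1 library corresponds to 0.124 to 0.926 CPM, which covers counting error only.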

Additional observations from a re-analysis of the deposited data

How the results depend on the processing

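No called member changed sign under any alternative: over the 57 calls, 826 values stayed past the threshold and 47 did not. The 38 calls of TRAP against total RNA were the steadiest, with 37 to 39 when a library was left out and 36 members kept throughout. The infarction calls in Salv cKO numbered 17 as reported, 20 with DESeq2, 14 without the filter, 18 with the replicate block and 9 to 16 when a library was left out. The call after sham surgery between genotypes numbered 4 with DESeq2, 2 with RLE scaling, 2 without the filter, 2 with the replicate block, 0 without both libraries with Y chromosome counts, and 0 to 3 when a library was left out. The infarction call in control numbered 2 with DESeq2, 3 without the filter, 2 with the replicate block, 5 without both libraries with Y chromosome counts, and 0 to 4 when a library was left out. The interaction of genotype and surgery gave 1 call without the filter and 0 whichever library was left out. The cause was not tested. Members called only under an alternative were Psma6, Psmd11 and Psme2 after sham, Psma4, Psmd7, Psme1 and Psmc1 in control, Psmc5, Psmb5, Psme1 and Psmc3ip in Salv cKO, Psmd1 in the interaction, and Psme3, Psmf1, Psma3 and Psmb6-ps2 in TRAP against total RNA. Replicate numbers mark no shared animal or day in the labels: the mean correlation of residuals between same-numbered libraries was -0.0017 in TRAP, so the block is only an alternative. Summing members with near-identical copies, an alternative chosen after seeing the data, kept each count within 1.5 times. The shallowest sham libraries limit scarce members such as Psmb7 and Psmb9.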
